A study of Mus musculus with 10 samples.

Results

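The genes described here encode the pores and accessory subunits of potassium channels, of voltage-gated sodium channels and of the ClC family of chloride channels and exchangers. They are every gene of the count table whose symbol begins with Kcn, is Clcn with a number, or is Scn with a number and a or b, and whose mean over all 10 libraries was at least 0.5 TPM (the usual unit of abundance that corrects for transcript length and library depth). Of 111 genes with such a symbol among the 18025 of the table, 45 reached that level. The 45 were therefore chosen by their level, and their levels are given as a description. Just above the limit lay Kcnh2 at 0.573 TPM, Kcnab2 at 0.563, Kcne1l at 0.547 and Kcnk5 at 0.509. Just below it lay Kcna2 at 0.483 TPM, Kcnmb1 at 0.369, Kcnmb4 at 0.362 and Kcnip3 at 0.356.

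Gastrocnemius, a calf muscle made mostly of fast fibres, was profiled by messenger RNA sequencing in 10 libraries from wild type C57BL/6 mice aged 8 weeks. 5 libraries were labelled control and 5 were labelled COPD, the disease state that the series models with cigarette smoke. The labels give neither the dose and length of smoke exposure nor whether each library came from its own animal, so p-values measure only the spread between these libraries, part of which may be technical. No pair of libraries of 1 group agreed to within counting noise (18.1 to 95.9 for chi-square divided by its degrees of freedom). The gastrocnemius holds fibres, vessels, nerve, connective tissue and blood cells, and in such bulk RNA fewer cells of a type and less RNA per cell cannot be told apart. The 12 fast fibre markers summed to 206037 to 301250 TPM in the 10 libraries, and no marker of any cell type list used here was at 0 in every library.

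Skeletal muscle fibres carry sodium action potentials along their surface and into their transverse tubules. A voltage-gated sodium channel starts the action potential, potassium channels repolarize the membrane, and a chloride conductance that is unusually large in skeletal muscle steadies the resting voltage and limits repetitive firing. Inward rectifier potassium channels hold the resting potential and clear potassium from the tubules, and ATP-sensitive potassium channels open when the energy supply of the fibre falls. Loss of the muscle chloride channel causes myotonia, and mutations of the muscle sodium channel and of an inward rectifier cause periodic paralysis in people.

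34 of the 45 genes had a promoter in the RefSeq table for GRCm38.p6, a newer build than the mm9 named in the submitters' processing notes. 4 promoters are shown because the results below turn on these genes: the sodium and chloride pores of the fibre, and a pair of related potassium channels that lay on opposite sides of 0 in COPD. Each runs from 250 bases before the annotated start site to 50 bases after it, 5′ to 3′ on the strand of the gene, and capitals mark matches to the motifs listed in the next paragraph. They lie at chr11:106349341-106349640 on the minus strand (Scn4a), chr6:42286435-42286734 on the plus strand (Clcn1), chr7:45405710-45406009 on the plus strand (Kcna7) and chr6:126535506-126535805 on the minus strand (Kcna5).
Scn4a: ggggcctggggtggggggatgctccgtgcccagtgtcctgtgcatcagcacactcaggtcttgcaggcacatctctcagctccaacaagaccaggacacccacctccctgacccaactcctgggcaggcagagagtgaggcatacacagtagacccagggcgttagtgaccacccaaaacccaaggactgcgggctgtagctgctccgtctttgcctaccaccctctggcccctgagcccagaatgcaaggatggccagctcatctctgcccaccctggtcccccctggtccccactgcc
Clcn1: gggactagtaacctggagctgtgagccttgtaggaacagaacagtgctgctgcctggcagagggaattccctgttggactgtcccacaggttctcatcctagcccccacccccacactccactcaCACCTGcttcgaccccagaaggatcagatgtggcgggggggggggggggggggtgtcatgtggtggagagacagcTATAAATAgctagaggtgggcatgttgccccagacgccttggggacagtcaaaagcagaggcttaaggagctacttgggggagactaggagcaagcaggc
Kcna7: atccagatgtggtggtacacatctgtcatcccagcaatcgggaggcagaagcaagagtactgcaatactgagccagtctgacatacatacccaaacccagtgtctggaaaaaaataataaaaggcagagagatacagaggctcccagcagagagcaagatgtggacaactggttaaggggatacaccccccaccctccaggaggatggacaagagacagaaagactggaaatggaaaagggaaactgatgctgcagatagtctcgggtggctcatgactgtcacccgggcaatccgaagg
Kcna5: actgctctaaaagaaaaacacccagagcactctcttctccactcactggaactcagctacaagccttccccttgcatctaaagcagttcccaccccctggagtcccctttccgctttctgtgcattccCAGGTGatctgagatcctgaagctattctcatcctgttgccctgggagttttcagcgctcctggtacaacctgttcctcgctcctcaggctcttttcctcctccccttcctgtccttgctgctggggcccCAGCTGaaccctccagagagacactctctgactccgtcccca

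6 motifs were searched on both strands of these 300-base windows. In the Clcn1 promoter, CACCTG, an E-box with a CC core, began 125 bases before the start site (position -125). TATAAATA, the reverse complement of the MEF2-like motif TATTTATA, began at -50 and contains the TATA box TATAAA. In the Kcna5 promoter, CAGGTG, the reverse complement of CACCTG, began at -122, and CAGCTG, the E-box bound by myogenic factors, began at position 9. None of the motifs was found in the windows of Scn4a and Kcna7. CACCTG or its complement stood in 20.2% of the 32851 promoters of the table, CAGCTG in 16.3%, TATAAA in 13.6% and TATTTATA in 1.70%. The remaining motifs were the clock E-box CACGTG, found in 7.15% of all promoters, and the D-box TTATGTAA, found in 0.938%. The 34 channel genes had 48 promoters in the table. Of these, CACGTG was in 9, CACCTG in 14, CAGCTG in 10, TATAAA in 2, TATTTATA in 1 and TTATGTAA in none. A match is only a run of letters and shows no binding.

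The channel genes of fast muscle spanned a wide range of levels. Scn4a (117 TPM on average), Kcnj11 (110), Kcnc4 (102), Clcn1 (87.4), Scn4b (77.0) and Kcna7 (73.4) were among the most abundant. Between these neighbours the mean TPM differed by less than 1 SD of either gene in either group. 15 genes averaged 10 TPM or more, and 13 averaged less than 1 TPM.

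**Figure D1:**
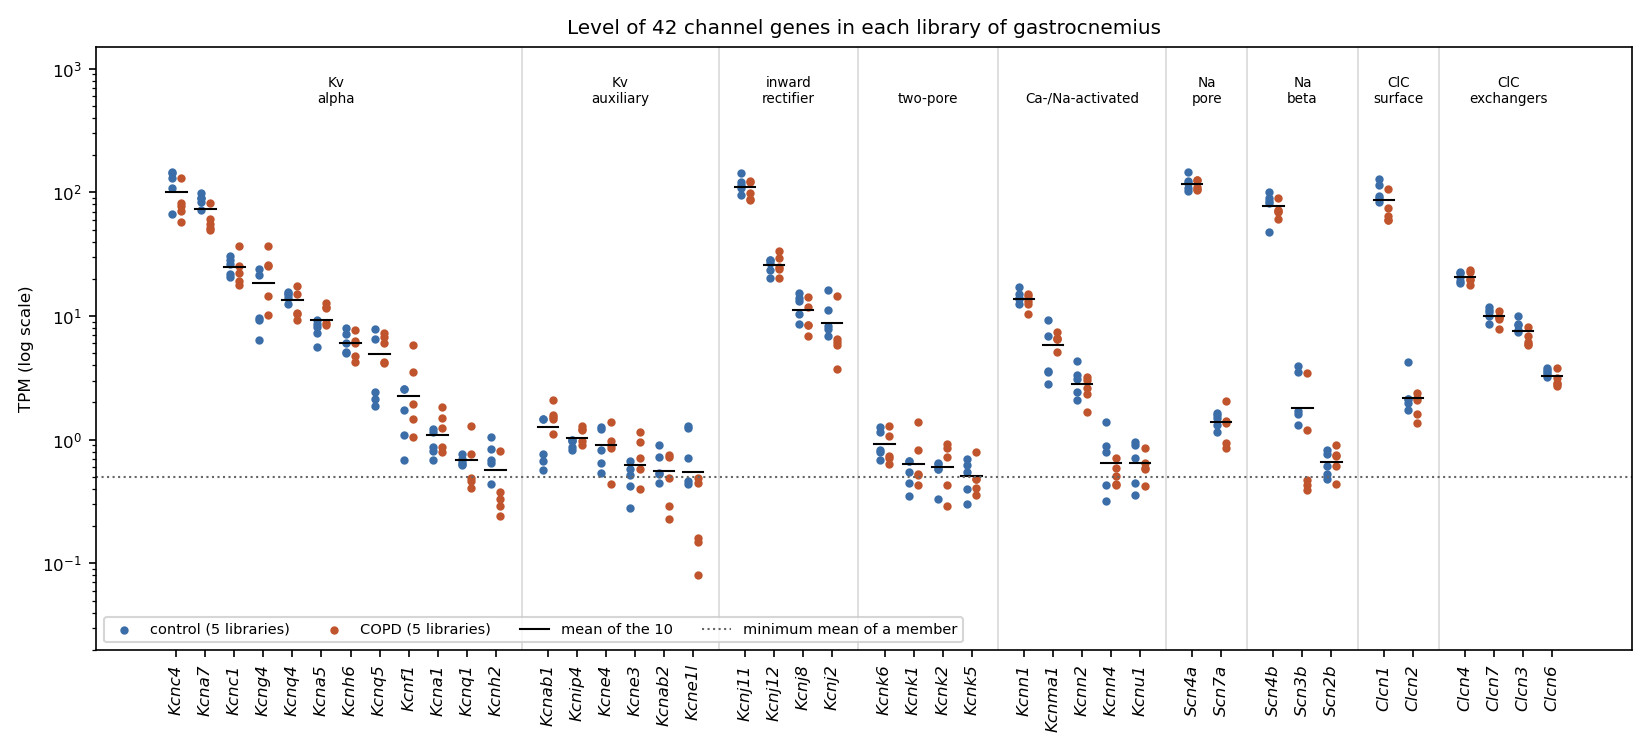
Level of 42 of the 45 channel genes in each library (vertical axis, TPM on a log scale), grouped by channel class along the horizontal axis; blue points are the 5 control and red points the 5 COPD libraries, black lines are means of the 10, and the dotted line is the minimum mean of 0.5 TPM. Scn4a, Kcnj11, Kcnc4, Clcn1, Scn4b and Kcna7 have means between 73.4 and 117 TPM.

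In most classes 1 or 2 genes carried most of the transcripts. Scn4a, the sodium pore of adult skeletal muscle, made up 98.8% of the TPM of the sodium channel pores, of which only Scn4a and Scn7a of 10 genes in the table passed the limit. Clcn1, the muscle chloride channel, made up 97.6% of the surface ClC channels. Kcnj11, the pore of the ATP-sensitive potassium channel of muscle, made up 70.6% of the inward rectifiers. In the Kv alpha class, the pores and silent subunits of voltage-gated potassium channels, Kcnc4 and Kcna7 together held 65.7% of the TPM, and 14 of 39 genes passed. The K2P channels, background potassium channels with a pair of pore domains in each subunit, summed to only 2.55 ± 0.170 TPM in control and 2.78 ± 0.681 in COPD (SD, n = 5 per group). Kcnn3, known from denervated muscle, and Kcnip2, known from heart, stayed below the limit, at 0.271 and 0.289 TPM.

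Among the 45 genes, 43 passed the filter on low counts and were tested among 12697 genes in all. No channel gene passed the threshold of 0.05 for COPD against control after Benjamini-Hochberg adjustment in edgeR's quasi-likelihood test, and the lowest adjusted p was 0.107. Over all tested genes, 8 (0.063%) passed that threshold. At an unadjusted p under 0.05, 7 channel genes were higher in COPD (16.3%, against 7.94% of all tested genes) and 1 was lower (2.33%, against 6.64%). Among the 7 were Kcna5, Kcnip4, Kcnab1 and Kcna1, and the lower gene was Kcna7. This balance turned with the scaling, for all genes as for the channels. With library size alone 2 channel genes were higher and 3 lower, against 3.17% and 18.7% of all genes, and by limma on log2(TPM + 1) 2 were higher and 6 lower, against 2.23% and 23.8%. By limma with sample weights (voom) 8 were higher and 4 lower, against 9.54% and 8.95%. None passed the adjusted threshold in these 3 fits. DESeq2 found 8 higher and 2 lower channel genes at the unadjusted level (22.2% of 45), which 11.4% of 17925 genes reached in either direction. These 17925 include genes too low for the filter of edgeR, so the shares are not of genes of like level. Of the channel genes, 2, Kcna5 and Kcnip4, passed the adjusted threshold of DESeq2, as did 3.01% of the 13736 genes that it adjusted.

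The log2 fold change of COPD over control was above 0 for 30 of the 43 genes, with a median of 0.10 against -0.01 over all tested genes. That split changed with the scaling. With library size alone, which moved the median of all genes to -0.17, 19 of the 43 genes were above 0, and on log2(TPM + 1), with a median of all genes at -0.18, 17 of 45 were. The median of the channel genes exceeded that of all genes by 0.11 under each of these 3 scalings. A change of scaling moves most genes by a similar amount, so this gap could hardly change with it. When 1 library was left out, the gap ran from 0.089 to 0.18. Among the 21 channel genes at 5 TPM or more, the median coefficient of variation between libraries was 14.8% in control and 17.6% in COPD, against 12.9% and 14.8% for the 7460 genes of that level.

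**Figure D2:**
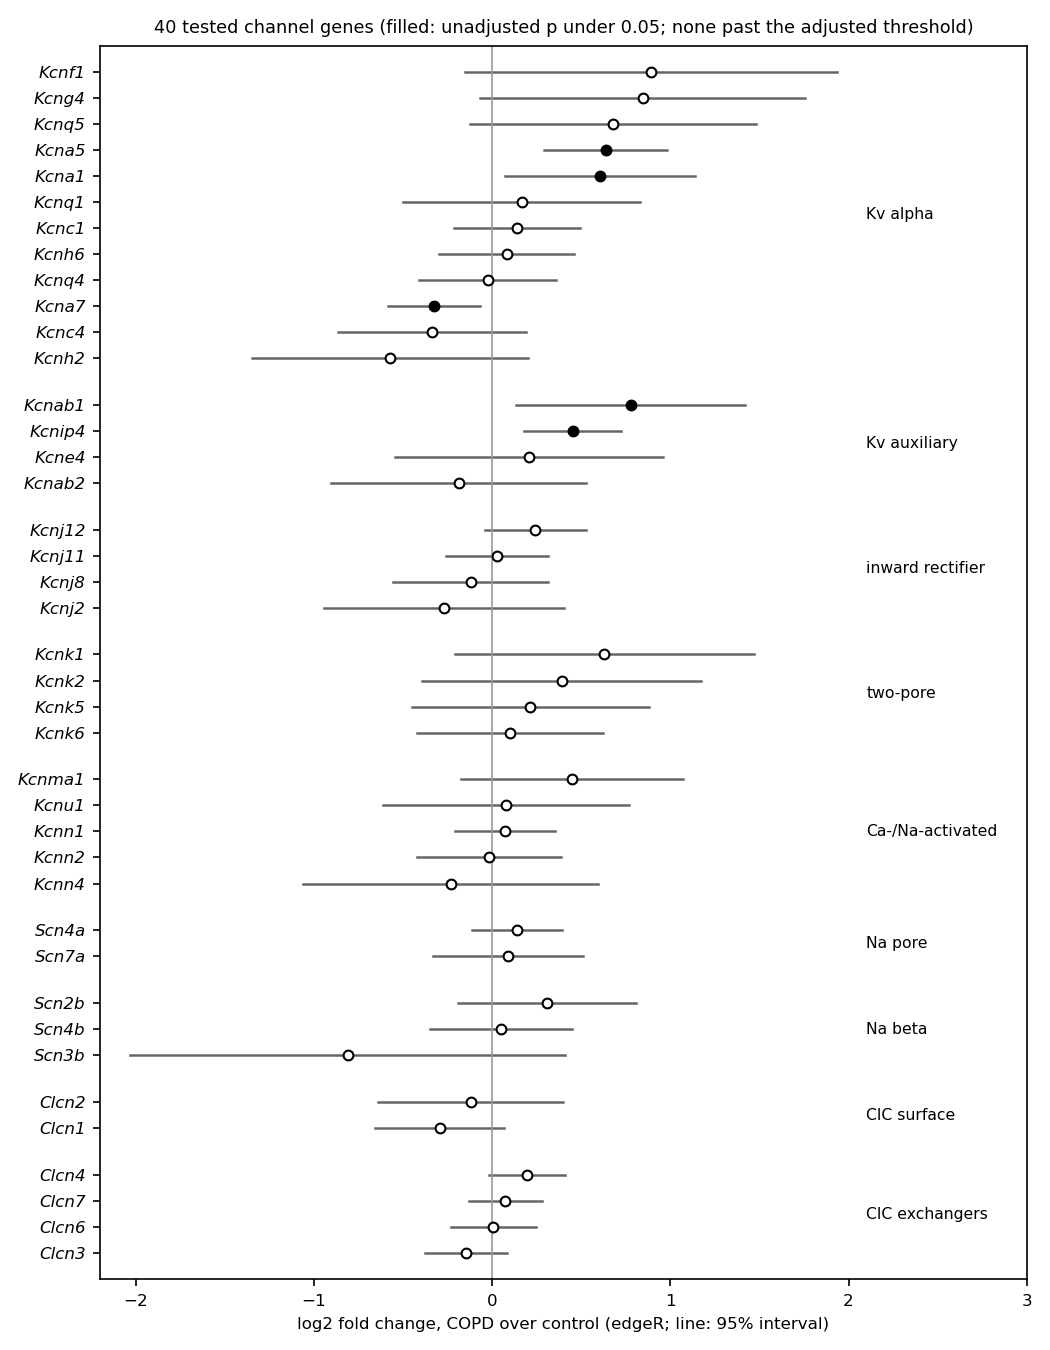
Log2 fold change of COPD over control (horizontal axis, edgeR) with its 95% interval for 40 of the 43 tested channel genes, grouped by class; filled points had an unadjusted p under 0.05. Of the 5 filled points, 4 lie above 0 and Kcna7 lies below, and no gene passed the adjusted threshold.

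With TMM scaling Scn4a, Scn7a and Scn4b lay above 0 and Scn3b below, whereas with library size alone these genes were all below 0. Of the 4 beta subunit genes, 3 were above 0 with TMM scaling and 2 with library size alone. No sodium channel gene passed the adjusted threshold. Scn4a had 536, 554, 564, 457 and 635 CPM (counts scaled to library depth with TMM factors, the scale of the comparison between groups) in control replicates 1 to 5, and 593, 697.5, 650, 536 and 548 in COPD replicates 1 to 5. The groups overlapped, with COPD replicates 2 and 3 above every control. On the log2 scale the fold change was 0.14 ± 0.12 (SE), with a 95% interval of -0.11 to 0.39, and its sign turned to -0.07 on log2(TPM + 1). Scn7a, which encodes a sodium sensor also found in glia, averaged 5.94 CPM in control (SD 0.557) and 6.30 in COPD (SD 1.96).

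Scn4b, a beta subunit that shapes the gating of the sodium pore, averaged 218 ± 55.1 CPM in control and 226 ± 31.8 in COPD (SD). Its log2 fold change of 0.05 ± 0.18 (SE) was -0.09 with library size alone.

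Scn3b, a beta subunit named here after its values were seen, was split within the COPD group. Its control libraries had 3.33, 7.57, 4.52, 8.71 and 2.93 CPM. COPD replicates 1, 2 and 3 had 1.11, 1.33 and 0.956 CPM, below every control, while COPD replicate 4 had 3.05 and COPD replicate 5 had 8.69, near the highest control. The fitted log2 fold change was -0.81 ± 0.56 (SE; edgeR adjusted p = 0.545) over all 10 libraries. It was -1.73 ± 0.43 (adjusted p = 0.0526) without COPD replicate 5, and the adjusted p ran from 0.0526 to 0.756 over all settings.

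The surface chloride channel of the fibre gave lower mean values in COPD that did not pass the test. Clcn1 had 261, 212, 234, 186 and 285 CPM in control and 166, 183, 192, 150 and 268 CPM in COPD. COPD replicates 1, 2 and 4 lay below every control, replicate 3 lay just above the lowest control, and replicate 5 stood among the highest. The log2 fold change was -0.30 ± 0.17 (SE; 95% interval -0.66 to 0.06; edgeR adjusted p = 0.442). Per Scn4a transcript, in TPM, Clcn1 stood at 0.848 ± 0.0743 in control and 0.640 ± 0.181 in COPD (SD, n = 5 per group), with overlapping ranges. By the GENCODE M21 annotation, exons of Clcn1 overlap those of Fam131b on the opposite strand, and nothing at hand says whether reads were counted by strand. Clcn2, a broadly expressed relative that overlaps Fam131a and Polr2h in the same way, averaged 5.37 ± 2.09 CPM in control and 4.94 ± 1.05 in COPD (SD, n = 5 per group).

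The ClC proteins of endosomes and lysosomes exchange chloride for protons and help to acidify these compartments. Clcn4 had 51.7, 47.6, 49.2, 44.15 and 50.7 CPM in control and 57.0, 55.9, 59.9, 60.2 and 45.7 CPM in COPD. COPD replicates 1 to 4 were above every control, replicate 5 was not, and the log2 fold change was 0.20 ± 0.10 (SE; edgeR adjusted p = 0.376). On log2(TPM + 1) it was -0.0053, so its direction rests on the scaling. Clcn7, the lysosomal exchanger that bone-resorbing cells also need, gave 0.07 ± 0.09 (SE), and -0.11 on log2(TPM + 1). The values of Clcn3 and Clcn6 were -0.15 ± 0.11 and 0.0063 ± 0.11 (SE), and with library size alone -0.30 and -0.15.

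No inward rectifier reached an unadjusted p under 0.05. Kcnj11 had 168, 177, 172, 184 and 219 CPM in control and 229, 165, 155, 217 and 172 CPM in COPD, with libraries of both groups at either end. On the log2 scale the fold change was 0.03 ± 0.13 (SE), with a 95% interval of -0.26 to 0.31, and its sign turned to -0.13 with library size alone. In the list of channel partners, Abcc9, a sulphonylurea receptor that joins such pores, stood at 201 ± 28.8 CPM in control and 187 ± 23.6 in COPD (SD, n = 5 per group; log2 fold change -0.10 ± 0.13, SE), and its relative Abcc8 at 5.13 ± 1.70 and 6.12 ± 2.02 CPM. These 2 were named for their role, outside the naming rule. Kcnj8, the related pore of vascular smooth muscle, averaged 17.6 ± 4.34 CPM in control and 16.2 ± 4.03 in COPD (SD, n = 5 per group; log2 fold change -0.12 ± 0.20, SE).

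Of the strong inward rectifiers, Kcnj12 was the more abundant, at 2.72 ± 0.783 times the TPM of Kcnj2 in control and 4.24 ± 1.71 times in COPD (SD, n = 5 per group), with overlapping ranges. Kcnj12 had 68.0, 63.0, 65.3, 47.5 and 66.4 CPM in control and 60.0, 70.7, 68.1, 90.6 and 77.3 CPM in COPD, a log2 fold change of 0.24 ± 0.13 (SE; edgeR adjusted p = 0.424). It was 0.093 with library size alone, 0.041 on log2(TPM + 1), and 0.16 without control replicate 4 or without COPD replicate 4. With TMM scaling all COPD libraries but replicate 1 were above every control. Kcnj2, the gene altered in a periodic paralysis with heart rhythm disturbance, had 49.2, 20.7, 27.5, 25.2 and 32.6 CPM in control and 22.1, 14.1, 22.6, 21.03 and 48.6 CPM in COPD. Control replicate 1 and COPD replicate 5 stood well above the other 8 libraries, and the log2 fold change was -0.27 ± 0.31 (SE; edgeR adjusted p = 0.738). Without control replicate 1 it was -0.043, and without COPD replicate 5 it was -0.64. The same 2 libraries had the highest sums of the macrophage and leukocyte markers, 338 and 141 TPM against 18.3 to 82.7 TPM in the other 8. Much of both sums was S100a8, a neutrophil gene, at 254 and 67.2 TPM. The other markers of that list summed to 83.6 and 73.9 TPM in these libraries, against 51.6 to 70.0 in the other controls and 17.3 to 33.2 in the other COPD libraries. Their part in the result was not tested.

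The Kv alpha class held genes on both sides of 0, with 10 above and 4 below under TMM scaling and 8 above and 6 below with library size alone. Kcna5, a delayed rectifier well known from heart and smooth muscle, had 13.7, 15.3, 16.4, 12.1 and 9.01 CPM in control and 18.5, 17.2, 22.6, 23.8 and 21.3 CPM in COPD. With TMM scaling every COPD library lay above every control library, whereas 4 of 5 did with library size alone and 3 of 5 in TPM. The log2 fold change was 0.64 ± 0.16 (SE; edgeR unadjusted p = 0.00168, adjusted p = 0.107). It was 0.49 with library size alone and 0.40 on log2(TPM + 1). DESeq2 gave 0.64 ± 0.17 with an adjusted p of 0.0127, and over all settings the adjusted p of Kcna5 ran from 0.0127 to 0.230, with an unadjusted p under 0.05 in each. Kcna5 and Kcnip4 were the 2 channel genes, 4.65% of the 43, whose groups did not overlap in TMM-scaled CPM, against 2.84% of all tested genes.

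Kcna7, a Kv channel expressed mainly in skeletal muscle and heart, lay on the other side. It had 161, 172, 160, 173 and 183 CPM in control and 126, 119, 137, 176 and 120 CPM in COPD. COPD replicates 1, 2, 3 and 5 were below every control, and replicate 4 was within the control range. The fitted log2 fold change was -0.33 ± 0.12 (SE; edgeR unadjusted p = 0.0181, adjusted p = 0.244). It was below 0 under every setting tried, from -0.54 to -0.28, with an unadjusted p under 0.05 in each. Measured in TPM, Kcna7 transcripts were 11.6 ± 3.59 times those of Kcna5 in control, from 8.34 to 17.5, and 5.64 ± 0.613 times in COPD, from 4.84 to 6.38 (SD, n = 5 per group). These ratios did not overlap, which is given as a description because the pair was picked after both genes had been seen.

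Kcna1, the pore best known from nerve axons, had 6.15, 3.37, 4.65, 4.33 and 5.58 CPM in control and 9.45, 4.88, 10.6, 6.92 and 4.90 CPM in COPD (log2 fold change 0.60 ± 0.25, SE; edgeR adjusted p = 0.286). The highest libraries of each group were control replicates 1 and 5 and COPD replicates 1 and 3. These were also the highest in the summed Schwann cell and nerve markers, at 244, 254, 304 and 206 TPM against 85.8 to 135 TPM in the other 6 libraries, and their part in the result was not tested. Over the whole nerve list, 7 of 12 tested markers were above 0 and 5 below with TMM scaling, 5 above and 7 below with library size alone and 3 above and 9 below on log2(TPM + 1), and the sum ran from 124 to 254 TPM in control and from 85.8 to 304 in COPD.

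Kcnc1, a fast high-threshold channel, gave 0.14 ± 0.16 (SE), and -0.10 on log2(TPM + 1).

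**Figure D3:**
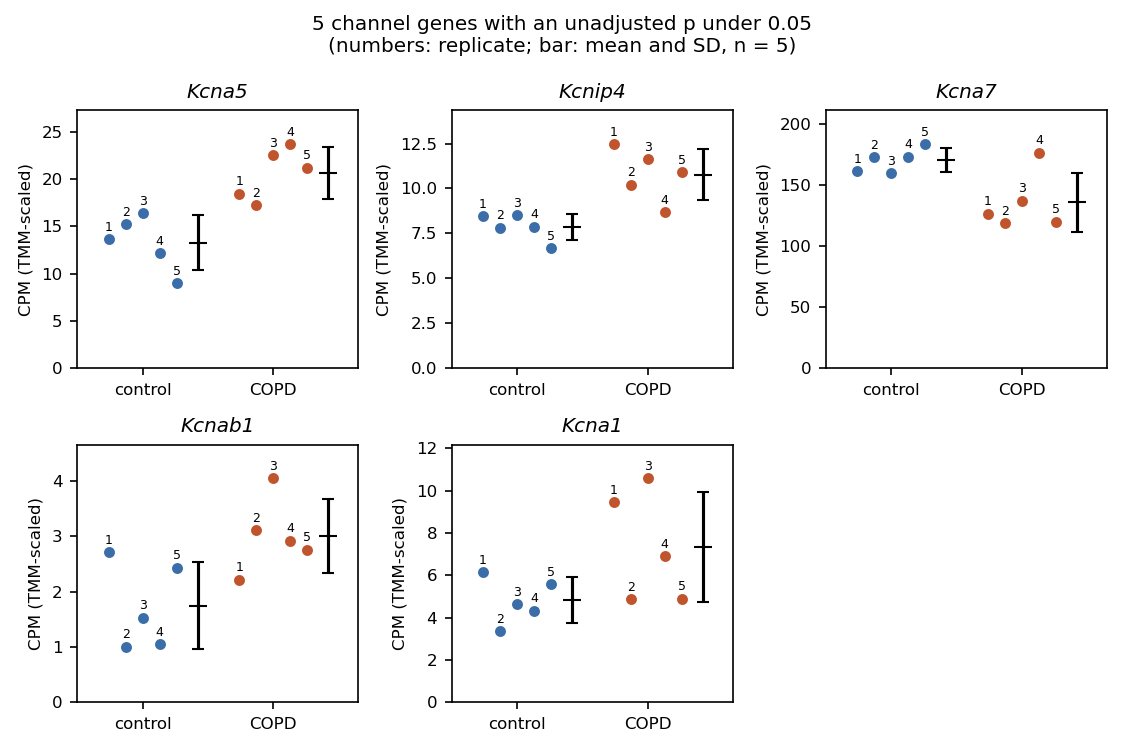
TMM-scaled CPM (vertical axes) in each control (blue) and COPD (red) library for 5 of the 8 channel genes with an unadjusted p under 0.05; numbers are replicates and bars show mean and SD of 5. In Kcna5 and Kcnip4, on this TMM scale though not in TPM, every COPD library lies above every control, and in Kcna7 4 COPD libraries lie below every control.

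Kcnc4, the most abundant Kv alpha gene in TPM, had 124, 261, 262, 258 and 189 CPM in control and 175, 153, 114, 156 and 268 CPM in COPD. COPD replicate 5 was the highest of all 10 libraries and control replicate 1 the second lowest, and the log2 fold change was -0.34 ± 0.24 (SE; edgeR adjusted p = 0.565). Kcnc4 subunits can join with that of Kcne3, an accessory gene listed at 0.494 ± 0.150 TPM in control and 0.760 ± 0.300 in COPD (SD, n = 5 per group) but too low in counts for the test. Kcng4 and Kcnf1, silent subunits that join other Kv pores, and Kcnq5, of the family that conducts the M current, had larger but less certain values and are named after they were seen. Their log2 fold changes were 0.84 ± 0.42, 0.89 ± 0.48 and 0.68 ± 0.37 (SE), with edgeR adjusted p of 0.376, 0.422 and 0.428. Without COPD replicate 2, Kcng4 gave 0.56 and Kcnf1 0.39. Kcng4 had 13.3, 49.1, 51.3, 19.7 and 18.5 CPM in control and 26.2, 93.5, 61.4, 58.1 and 33.2 CPM in COPD, a wide spread in both groups.

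Among the accessory subunits of Kv channels, Kcnip4 and Kcnab1 lay above 0 at an unadjusted p under 0.05. Kcnip4, a calcium-binding partner of Kv4 pores, had 8.46, 7.81, 8.51, 7.88 and 6.68 CPM in control and 12.5, 10.2, 11.6, 8.68 and 10.9 CPM in COPD. The groups did not overlap with TMM scaling, whereas 4 of 5 COPD libraries were above every control with library size alone and 3 of 5 in TPM. The log2 fold change was 0.45 ± 0.13 (SE; edgeR unadjusted p = 0.00339, adjusted p = 0.136). DESeq2 gave 0.46 ± 0.14 with an adjusted p of 0.0441, and over all settings the adjusted p of Kcnip4 ran from 0.0441 to 0.4001. Its log2 fold change was 0.30 with library size alone and 0.13 on log2(TPM + 1), and in both limma fits on TPM the unadjusted p missed 0.05. Kcnab1, a cytoplasmic beta subunit, had 2.71, 1.01, 1.53, 1.05 and 2.43 CPM in control and 2.22, 3.11, 4.04, 2.92 and 2.75 CPM in COPD (0.78 ± 0.30, SE; edgeR adjusted p = 0.261). Its control replicates 1 and 5 lay above COPD replicate 1, and its lowest library held 17 counts. Kcne1l, also too low for the test by edgeR, was listed at 0.828 ± 0.413 TPM in control and 0.266 ± 0.189 in COPD (SD, n = 5 per group). It held only 1 to 18 counts per library, and was 1 of the 2 lower channel genes of DESeq2 at the unadjusted level.

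The channels opened by calcium or sodium gave no unadjusted p under 0.05. Kcnn1, a small-conductance channel and the most abundant of them in TPM, averaged 23.7 ± 1.89 CPM in control and 24.9 ± 4.48 in COPD (SD, n = 5 per group; log2 fold change 0.07 ± 0.13, SE, and -0.08 with library size alone). Kcnma1, the large-conductance channel, had 42.7, 12.7, 17.4, 16.4 and 30.2 CPM in control and 35.5, 34.7, 37.8, 30.7 and 24.3 CPM in COPD (0.45 ± 0.29, SE; edgeR adjusted p = 0.509). That value was 0.76 without control replicate 1 and 0.29 without control replicate 2. Kcnq5 shared the split of the controls, with 22.6, 6.45, 8.44, 8.43 and 26.6 CPM in control and 26.1, 17.97, 29.2, 26.7 and 16.4 CPM in COPD. In both genes control replicates 1 and 5 lay within the range of the COPD libraries or above it, and control replicates 2 to 4 lay below all of them. Of the controls, replicates 1 and 5 had the higher nerve marker sums, at 244 and 254 TPM against 124 to 135 in the others. In COPD, replicates 2 and 4 had the lowest sums, 85.8 and 101.5 TPM, with Kcnma1 and Kcnq5 above control replicates 2 to 4. The part of nerve content in these values was not tested.

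All 4 K2P genes gave values above 0 with TMM scaling, from 0.10 ± 0.24 for Kcnk6 to 0.63 ± 0.39 for Kcnk1 (SE), whereas Kcnk6 was at -0.06 with library size alone, and none had an unadjusted p under 0.05. Kcnk6 averaged 2.18 ± 0.568 CPM in control and 2.33 ± 0.605 in COPD, and Kcnk1 0.723 ± 0.244 and 1.12 ± 0.654 (SD, n = 5 per group). COPD replicate 1 had the highest Kcnk1 value, 2.22 CPM against 0.666 to 1.25 in the other COPD libraries, and without it the Kcnk1 log2 fold change was 0.24.

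**Figure D4:**
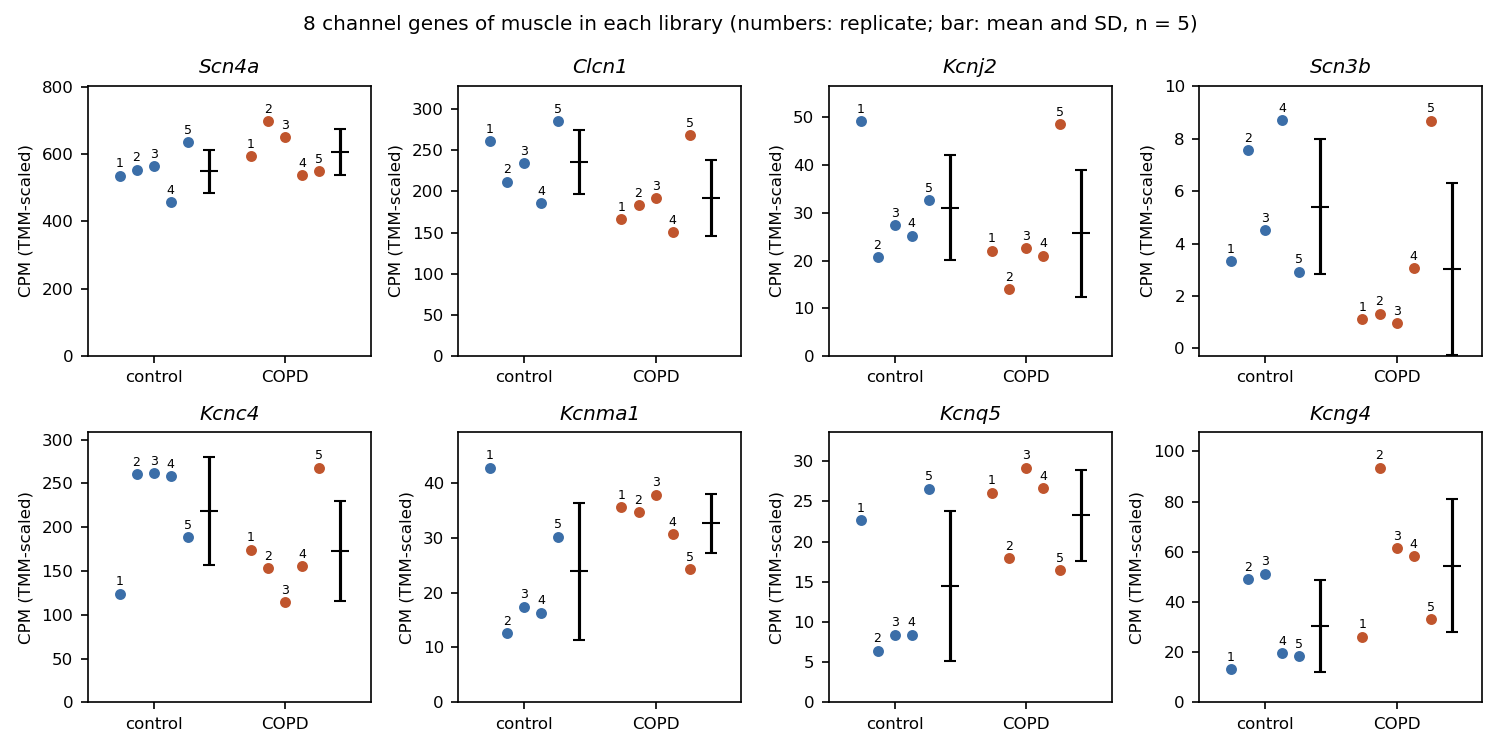
TMM-scaled CPM (vertical axes) in each control (blue) and COPD (red) library for 8 channel genes described in the text; numbers are replicates and bars show mean and SD of 5. COPD replicate 5 lies near the top of the control range in Clcn1, Kcnj2, Scn3b and Kcnc4, and control replicates 1 and 5 lie far above the other controls in Kcnma1 and Kcnq5.

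COPD replicate 5 stood apart from its group across all genes as well. On the first principal component of all tested genes, which held 28.4% of the variance, the controls lay between -23.9 and -10.0, COPD replicates 1 to 4 between 11.4 and 38.0, and COPD replicate 5 at -21.9. Without it, edgeR passed 3.21% of all genes at the adjusted threshold and no channel gene, and 20.8% of all genes and 16 of 43 channel genes (37.2%) had an unadjusted p under 0.05. The 16 divided into 9 higher and 7 lower genes. Among the higher were Kcna5 at 0.63, Kcnip4 at 0.45, Kcna1 at 0.72, Kcnab1 at 0.81, Kcnf1 at 1.11, Kcng4 at 0.98 and Clcn4 at 0.26.

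In all the lower genes but Kcna7, COPD replicate 5 lay within the range of the controls or, for Kcnc4, above it. Scn3b is given above. Without that library Clcn1 gave -0.45 ± 0.14 (SE; edgeR unadjusted p = 0.00777, adjusted p = 0.103), and its adjusted p ran from 0.103 to 0.648 over all settings. Kcnj2 gave -0.64 ± 0.24, Kcnc4 -0.55 ± 0.22, Clcn3 -0.22 ± 0.10, Kcna7 -0.28 ± 0.12 and Kcnh2, the heart repolarizing channel, -0.97 ± 0.32 (SE). The library was left out because of where it lay on the measured values, so these figures describe the other 9 libraries and do not replace the test of all 10.

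**Figure D5:**
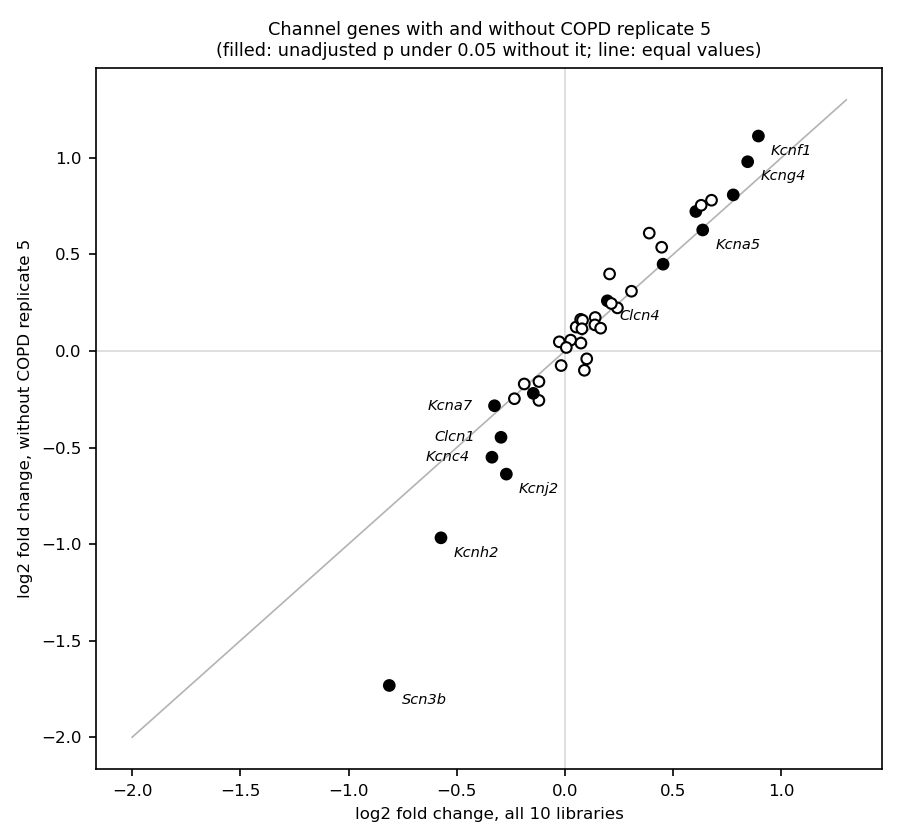
Log2 fold change of COPD over control for 40 of the 43 tested channel genes over all 10 libraries (horizontal axis) and without COPD replicate 5 (vertical axis); filled points had an unadjusted p under 0.05 without it, and the line marks equal values. Scn3b moves from -0.81 to -1.73, and Kcnh2, Kcnj2, Kcnc4 and Clcn1 also lie below the line.

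Transcripts of Y-linked genes split the COPD group in another way. All 5 controls and COPD replicates 2 and 3 had 1118 to 1974 counts of 3 Y-linked genes, while COPD replicates 1, 4 and 5 had 3 or 4. The comparisons of all 10 libraries given above carry this imbalance between the groups. With a term for this split, so that COPD replicates 2 and 3 alone set the difference from control, edgeR passed 1.7% of all genes at the adjusted threshold and no channel gene. 11 channel genes (25.6%, against 18% of all) had an unadjusted p under 0.05, of which 7 were higher and 4 lower. The 4 lower were Scn3b, Kcnh2, Kcna7 and Kcnc4, while Kcna1, at 0.68, was not among the 7 higher genes. Kcna5 gave 0.58 ± 0.21, Kcnip4 0.47 ± 0.17, Kcnab1 1.03 ± 0.37 and Kcna7 -0.41 ± 0.16 there, while Kcnf1 gave 1.67 ± 0.42 (SE; edgeR adjusted p = 0.0714, from 0.0714 to 0.765 over all settings). Kcnf1 had 19.1 and 10.7 CPM in COPD replicates 2 and 3 and 1.83 to 6.83 CPM in the other 8 libraries.

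3 lists of related genes were read beside the channels, and none held a gene past the adjusted threshold by edgeR. Among the partners of the channels in excitability (pumps, receptors, anchors), 38 were tested, and an unadjusted p under 0.05 was found for 4 higher and 2 lower genes (10.5% and 5.26%, near the 7.94% and 6.64% of all tested genes). Their median log2 fold change was -0.0041 with TMM scaling and -0.16 with library size alone, against -0.01 and -0.17 over all genes. Those with the smallest p were Fxyd1, phospholemman, a regulator of the sodium pump (0.37 ± 0.13, SE), Slc12a7, a potassium-chloride cotransporter (-0.47 ± 0.17), and Car3, a carbonic anhydrase abundant in muscle (0.75 ± 0.29). Of 23 other chloride and anion channel genes, 4 were higher and 2 lower at that level (17.4% and 8.70%, against 7.94% and 6.64% of all). With TMM scaling 13 of the 23 were above 0, with a median of 0.03. With library size alone 7 were, with a median of -0.13. Lrrc8a, the obligatory subunit of the volume-regulated anion channel, stood at 15.2 ± 1.90 CPM in control and 23.0 ± 3.34 in COPD (SD, n = 5 per group). With TMM scaling its groups did not overlap, as in 2.84% of all tested genes, and overlap on the other scales was not examined. The log2 fold change of Lrrc8a was 0.60 ± 0.13 (SE; edgeR adjusted p = 0.0887). Its partner subunit Lrrc8c gave 0.63 ± 0.17 (edgeR adjusted p = 0.124), and Ano4, of the calcium-activated scramblase and channel family, gave -0.72 ± 0.27.

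Of 16 tested genes of the denervation response, 2 reached that level, both higher in COPD (12.5%, against 7.94% of all). The median was -0.03, with 8 genes above 0 and 8 below under TMM scaling, and -0.18, with 7 above and 9 below, with library size alone. Hdac4, a deacetylase that carries the signal of lost nerve input to the nucleus, gave 0.57 ± 0.14 (SE; edgeR adjusted p = 0.0974), and Gadd45a gave 0.50 ± 0.19 (edgeR adjusted p = 0.265). Kcnn3, which denervated muscle is known to express, gave -0.55 at 0.271 TPM, with an edgeR adjusted p of 0.569.

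Markers of the fibre types lay on opposite sides of 0 with TMM scaling. All 8 slow fibre markers were below 0, with a median of -1.20. Their sum was 1372 and 966 TPM in control replicates 1 and 4 and 218, 202 and 262 TPM in control replicates 2, 3 and 5, which lay within the COPD range of 103 to 475 TPM. All 12 fast fibre markers were above 0 with TMM scaling, with a median of 0.26, and 10 of 12 with library size alone, and their sum ran from 206037 to 301250 TPM in control and from 255961 to 296268 in COPD. No marker of either list passed edgeR's adjusted threshold. The 8 tested macrophage and leukocyte markers were below 0, from 57.3 to 338 TPM summed in control and from 18.3 to 141 in COPD. Of the other lists, endothelium had 1 of 10 markers above 0 with TMM scaling and with library size alone. The smooth muscle and pericyte markers had 3 of 10 above 0 with TMM scaling and 1 with library size alone, adipocyte 4 and 2 of 6, and fibroblast and tendon 7 and 6 of 9. Their part in the channel results was not tested.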

How the data were processed

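The authors deposited expected counts per gene and TPM for the same genes. Per the submitters' processing notes, the tools were RSEM 1.2.12, DESeq2 1.4.5, Bowtie2 2.2.5 and HISAT2 2.0.4, in roles not stated, and the build was mm9. Groups and replicate numbers came from the titles. Library totals were 14085806 to 17250998 counts.

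Expected counts were rounded, filtered with filterByExpr, scaled by TMM (factors 0.963 to 1.14 in control and 0.915 to 0.967 in COPD) and compared by edgeR 4.0.16 (glmQLFit, glmQLFTest) with Benjamini-Hochberg adjustment over 12697 genes and a threshold of 0.05. The procedure was tested on simulated data. Alternatives were DESeq2 1.42.0, limma 3.58.1 (voom with sample weights, and the deposited TPM as log2(TPM + 1) or log2(TPM + 0.1)), other scalings and filters, a replicate block, a term for Y-linked counts and leaving out each library. Levels between genes are in TPM and the contrast in TMM-scaled CPM.

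The members and gene lists were chosen with earlier results of these data known. Named members were those past the adjusted threshold, up to 14 with the smallest unadjusted p under 0.05, the 2 with the highest mean TPM of each class, and 13 genes of known roles in muscle; of each list, those past the threshold and up to 3 with the smallest unadjusted p under 0.05. Scn3b, Kcnq5, Kcng4, Kcnf1, Kcnh2, Kcnj8, Clcn3, Clcn6, Kcne3 and Kcne1l are named outside this rule, after their values were seen. Gene models came from GENCODE M21 and promoters from RefSeq (GRCm38.p6). Protein sequences were not used here. Some channel genes enter the counts and are not reported here by name.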

Additional observations from a re-analysis of the deposited data

Results flagged for a closer look

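In 3 of the 48 groups of 5 libraries that were searched, 1 library stood far from the others. Its gap to the nearest, divided by the range of the group, exceeded 0.71, the usual limit for 5 values. Chance gives this in about 1 group of 20, and 3 of 48 is near that share. Kcnj12 was lowest in control replicate 4, at 47.5 CPM against 63.0 to 68.0 in the other controls. Clcn2 was highest in control replicate 1, at 9.09 CPM against 4.20 to 4.71. Kcnj2 was highest in COPD replicate 5, at 48.6 CPM against 14.1 to 22.6 in the other COPD libraries.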

How the results depend on the processing

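Over all genes, edgeR passed 8 at the adjusted threshold, DESeq2 414, voom with sample weights 137, edgeR without the filter on low counts 17, limma on log2(TPM + 1) 44, limma on log2(TPM + 0.1) 36 and edgeR with the term for Y-linked counts 216, and leaving out 1 library gave 0 to 410. Of the channel genes, DESeq2 passed 2, and no other alternative passed any, leaving out each library included. Channel genes at an unadjusted p under 0.05 numbered 8 by edgeR, 5 with library size alone and 5 to 16 when 1 library was left out: 5 without control replicate 2 or 4 or COPD replicate 3 or 4, and 16 without COPD replicate 5. Same-numbered libraries of the groups did not deviate together (correlations -0.140 to 0.041), none correlated best with its own number, and with a replicate block 7 genes in all and 0 channel genes passed, with 10 channel genes under the unadjusted level. For 24 named members, 459 of 503 values kept their direction and side of the threshold, 2 newly passed it, and 42, in 10 genes, changed sign. With library size alone, log2(TPM + 1) and log2(TPM + 0.1), in that order, the log2 fold change became -0.13, -0.17 and -0.17 for Kcnj11, -0.060, -0.048 and -0.096 for Kcnk6, -0.084, -0.14 and -0.15 for Kcnn1, -0.014, -0.065 and -0.066 for Scn4a, -0.068, -0.081 and -0.15 for Scn7a, -0.091, -0.12 and -0.12 for Scn4b, -0.083, -0.11 and -0.12 for Clcn7, and -0.014, -0.10 and -0.11 for Kcnc1; Clcn4 became -0.0053 and -0.0056 under the 2 TPM fits. Upper-quartile scaling gave -0.0014 for Kcnj11, and the Y-linked term gave -0.20 for Kcnj11, -0.27 for Kcnk6, -0.084 for Scn7a and -0.10 for Kcnc1. Leaving out 1 library gave -0.055 to 0.098 for Kcnj11, -0.041 to 0.22 for Kcnk6, -0.0027 to 0.16 for Kcnn1, -0.10 to 0.19 for Scn7a, -0.095 to 0.12 for Scn4b, -0.22 to 0.15 for Clcn2 and -0.028 to 0.22 for Kcnc1. The causes of these changes were not tested. Genes near 1 CPM rest on few counts, and their intervals are wide.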
